A study of Saccharomyces cerevisiae with 64 samples.

Results

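The transcriptome of a yeast mutant named kfc1 was compared with wild type at 0 h, the start of the sporulation time course, in strains without any overexpression. The comparison takes 4 of the 64 samples of the study, 2 replicates of each genotype, and covers the 6510 of 6660 listed genes that had a value. All cells were Saccharomyces cerevisiae S288c under the condition named sporulation, and polyadenylated RNA was sequenced. The mutant group carries the genotype written kfc1 -- and the other group is wild type, and neither overexpresses a gene. At 0 h the study also holds both genotypes in strains built to overexpress IME1, the transcription factor that starts meiosis, or both IME1 and RIM4, whose product binds RNA and is required for sporulation. The labels write these constructs as PzevIME1 and PzevRIM4. The sample titles do not say whether the constructs were already switched on at 0 h. Below, "with IME1" and "with IME1 and RIM4" therefore name the strains and not a known level of overexpression.

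The deposited table holds 1 value per gene and group, with the replicates combined, so no value of a single replicate, no standard deviation and no test can be given for any gene. Every value below is a log2 difference, kfc1 minus wild type, which at 0 h without overexpression is the deposited ratio itself, since wild type at 0 h is the reference of the table and stands at 0. A gene is counted as higher or lower when it differs by at least 1 on the log2 scale, that is 2-fold. The labels mark both wild-type samples as re-used, without saying from where, and neither of the kfc1 samples, so genotype and this re-use cannot be told apart in the comparison. Ratios carry no expression level and no read depth, so the precision of a value is unknown and the labelled strain cannot be checked by the level of its markers. In such bulk samples a smaller share of cells expressing a gene and less RNA per cell cannot be told apart.

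Kfc1 was taken from the literature to be the product of VIR1 (YGL036W), a subunit of the complex that methylates adenosines of messenger RNA at the N6 position (m6A). In budding yeast this methylation is made during meiosis, by the catalytic subunit Ime4 with Mum2, Slz1, Kar4 and other subunits, and it is read by the YTH domain protein Pho92. In such courses 0 h is usually the start of starvation, when growth on glucose is over or ending. Genes for respiration, acetate use, storage and stress are then normally active. The sample titles do not give the medium or the growth of these cells before 0 h. S288c strains sporulate slowly and poorly compared with other laboratory strains.

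In the R64 assembly VIR1 occupies bases 428601 to 431330 of chromosome VII. Its transcript was -5.73 in kfc1, a 53.2-fold difference and the lowest value of all genes. It was also the lowest of all genes in each of the other arms at 0 h, at -6.90 with IME1 and -7.25 with IME1 and RIM4. Of the 3 genes on each side of it, the nearest neighbours were close to 0, with PNC1, the nicotinamidase gene, at -0.22 and MIG1, the glucose repressor gene, at 0.02. OCH1, a mannosyltransferase gene, stood at -0.08, YGL034C at 0.08 and YGL039W at 0.55. The meiotic recombination gene HOP2, the outermost of the 3 on its side, stood at -0.78.

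Among the other genes of the m6A list, SLZ1 was counted as lower, at -1.05. PHO92, the reader gene, stood at -0.87, below the threshold of the count. IME4 (0.11), MUM2 (-0.04), KAR4 (-0.02) and DYN2, the dynein light chain gene (-0.23), lay close to 0. SLZ1 and PHO92 were both lower with IME1 but differed in sign with IME1 and RIM4. SLZ1 was -1.61 with IME1 and 0.87 with IME1 and RIM4, whereas PHO92 was -1.09 and -0.75.

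Of the 6510 genes, 33 were higher in kfc1 (0.507% of the genes with a value) and 74 were lower (1.14%). Over all genes 47.2% lay above 0 and 52.8% below. Each list count below is to be read beside these shares. The middle of the distribution was narrow, with 89.3% of genes within 0.5 log2 units of wild type and a median of -0.02. Only TPO2 was at least 4-fold higher, and 5 genes, VIR1, PIR3, SSA3, SHH3 and ICL2, were at least 4-fold lower. YKL068W-A (1.46) was among the 20 highest genes and DPC7 (-1.92) among the 20 lowest, and neither is taken up below. Genes on either side of the threshold hardly differed: SHE1 (1.01) was counted and the G1 cyclin gene CLN2, which rounds to 1.00, was not, while the small heat shock gene HSP26, at -0.99, just missed the lower limit.

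**Figure D1:**
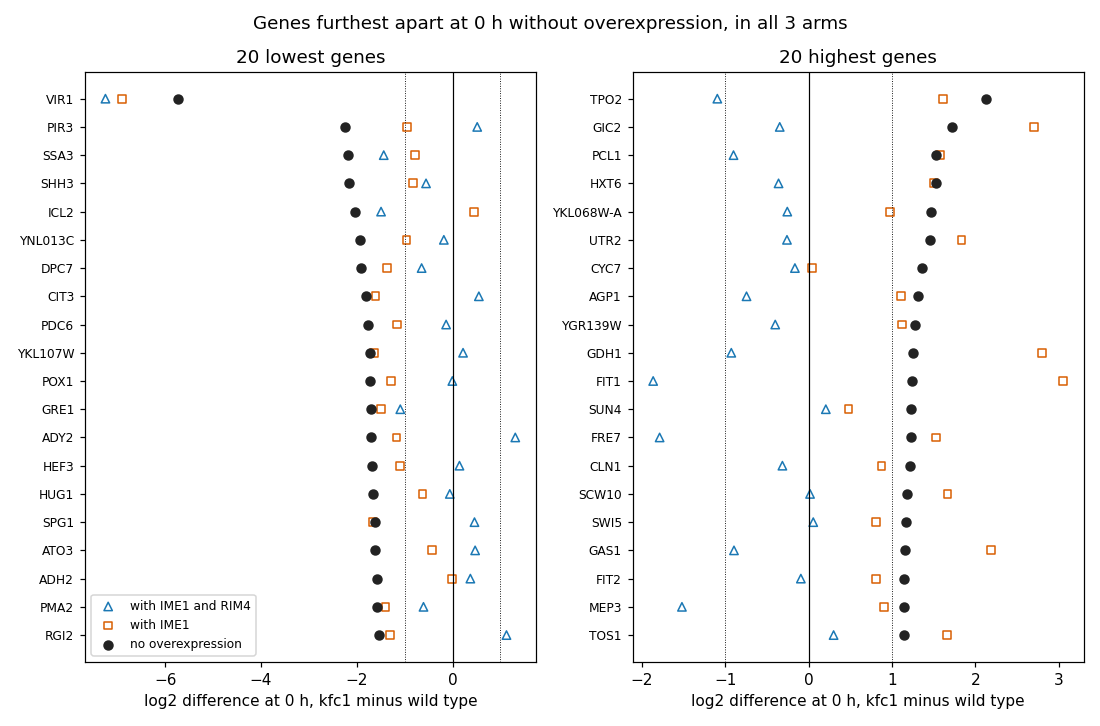
Log2 difference between kfc1 and wild type at 0 h (horizontal axis) for the 20 lowest and 20 highest genes without overexpression (black points), with the values of the same genes at 0 h with IME1 (squares) and with IME1 and RIM4 (triangles). Dotted lines mark 2-fold, each symbol is 1 combined value, and the triangles of the highest genes lie at or to the left of 0.30 while their black points all exceed 1.

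Genes for the use of acetate, propionate and fatty acids held many of the lowest values. In the list of acetate use, the glyoxylate cycle and gluconeogenesis, 6 of 37 genes were lower and 0 higher. Over all genes 1.14% were lower and 0.507% higher. The median of the list was -0.29 against -0.02 over all genes. The lower ones were ICL2 (-2.03), the acetate transporter gene ADY2 (-1.70), the ammonium exporter gene ATO3 (-1.62), the alcohol dehydrogenase gene ADH2 (-1.58), PDH1 (-1.46) and the malate synthase gene MLS1 (-1.10). ICL2 and PDH1 encode mitochondrial enzymes of the 2-methylcitrate cycle, which breaks down propionate, and CIT3, whose product makes 2-methylcitrate as well as citrate, was lower too, at -1.81. These 3 genes all lie on chromosome XVI, with CIT3 and PDH1 next to each other between 556377 and 559935 and ICL2 from 567269 to 568996.

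Other genes of the same routes ranged from values just short of the count to values above 0. ACS1, an acetyl-CoA synthetase gene, stood at -0.87 and the gluconeogenic gene FBP1 at -0.77. ICL1, which encodes the isocitrate lyase of the glyoxylate cycle, stood at 0.05, PCK1, also of gluconeogenesis, at 0.27 and the mitochondrial citrate synthase gene CIT1 at -0.25. CIT3 was the only gene counted among 21 of the TCA cycle, whose median was 0.17. The pyruvate and lactate transporter gene JEN1 (0.76) and the succinate and fumarate carrier gene SFC1 (0.53) leaned the other way within the acetate list.

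Peroxisomal fatty acid oxidation was represented by POX1 (-1.73), POT1 (-1.31) and FOX2 (-1.27), which encode the acyl-CoA oxidase, the thiolase and the multifunctional enzyme, so that each enzyme of the core spiral was counted. These were the only 3 genes counted of 38 in the peroxisome and beta-oxidation list (0 higher, median -0.29), where 1.14% of all genes were lower. The subunits of the fatty acid importer stood at -0.92 (PXA2) and -0.75 (PXA1) and the peroxisome proliferation gene PEX11 at -0.88. The peroxin genes, which build the organelle, ranged further, with PEX25 at 0.29, PEX13 at 0.19, PEX19 at 0.02, PEX18 at -0.72 and PEX21 at -0.76, and PEX9, outside the list, just missed the count. LPX2, a peroxisomal protein gene outside the list, was -1.46. It was chosen after its value was seen.

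Heat shock chaperone genes were lower in 8 of 41 cases and higher in 0, with a median of -0.41, against 1.14% and 0.507% of all genes. SSA3, the gene of a stress-inducible cytosolic Hsp70 (chromosome II, 84499 to 86448), was lowest at -2.18. SNO4 (-1.28) and HSP31 (-1.19), which encode related DJ-1 family proteins, the Hsp90 gene HSP82 (-1.25), the Hsp70 gene SSA4 (-1.14), the Hsp110 gene SSE2 (-1.13), the membrane-protecting HSP12 (-1.04) and the sorting factor gene BTN2 (-1.01) followed. Only 5 of the 41 genes lay above 0. The Hsp70 genes SSB1 (0.35) and SSB2 (0.29), whose products work on ribosomes, were among these. HSF1, the gene of the heat shock transcription factor, was in the same list and stood at -0.25.

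Of 62 stress and stationary phase genes 10 were lower and 1 higher, with a median of -0.42 and 49 of them below 0, against 52.8% of all genes. The lowest were GRE1 (-1.70), which encodes a desiccation protein, SPG1 (-1.62), needed for survival in stationary phase, RGI2 (-1.55), a gene of energy metabolism under respiration, GND2 (-1.55) and the aldehyde dehydrogenase gene ALD3 (-1.47). NQM1 (-1.27), RTN2 (-1.17), the proteinase inhibitor gene PAI3 (-1.09), the reductase gene GRE2 (-1.08) and DDR2 (-1.06) completed the count. CYC7, the minor form of cytochrome c, was the higher one at 1.36. Trehalose and glycogen genes, which stress also induces, had 0 of 23 counted and a median of -0.11.

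Many of the lower genes are the minor or condition-specific member of a gene pair, so the partner was read beside each of 14 such genes. Genes and pairs were chosen here after their values had been seen. The pairs include PIR3 (-2.26) with PIR1 (0.46), SHH3 (-2.16) with the succinate dehydrogenase gene SDH3 (0.18), PMA2 (-1.57) with the proton pump gene PMA1 (0.45), HEF3 (-1.69) with the elongation factor gene YEF3 (0.31) and NDE2 (-1.22) with the NADH dehydrogenase gene NDE1 (0.19). In the pentose phosphate pathway, GND2 (-1.55), the transketolase gene TKL2 (-1.41) and the transaldolase gene NQM1 (-1.27) were lower, while GND1 (0.53), TKL1 (0.79) and TAL1 (0.65) stood above 0. The pyruvate decarboxylase gene PDC6 (-1.76), the only gene counted of 35 in glycolysis and fermentation, stood beside PDC1 at -0.32, and ADH2 beside ADH1 at 0.14. HSP82 was read beside HSC82 (-0.56), SSE2 beside SSE1 (-0.21), SSA3 beside SSA2 (-0.26) and CIT3 beside CIT1. Another Hsp70 gene, SSA4, was itself lower at -1.14. The related HSP31 (-1.19) and SNO4 (-1.28), not among the pairs, were both lower, so a close relative did not always stand near 0. Of the 14 pairs, the smallest distance was that of HSP82 and HSC82, -0.68, and the largest that of PIR3 and PIR1, -2.72. Reads of close copies such as HSP82 and HSC82 may be split between them in a way that the sources used here do not describe.

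Promoter windows of the lower genes are shown because several of them carry the sites of stress and post-diauxic activators. Each window runs from 400 to 101 bases before the start codon and was read from the R64 assembly of RefSeq, 5′ to 3′ on the strand of the gene, and capitals mark each match to the motif on either strand. In PIR3 the capitals mark the stress response element AGGGG and the post-diauxic element TAGGGAT, in SHH3 and CIT3 the post-diauxic element, and in DDR2 the stress response element.
PIR3 (chrXI:144001-144300, plus strand): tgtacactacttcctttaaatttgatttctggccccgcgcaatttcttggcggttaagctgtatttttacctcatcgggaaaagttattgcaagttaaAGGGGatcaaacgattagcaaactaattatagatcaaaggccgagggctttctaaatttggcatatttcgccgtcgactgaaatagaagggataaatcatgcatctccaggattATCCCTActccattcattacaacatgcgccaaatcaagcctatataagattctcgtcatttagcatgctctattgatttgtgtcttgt
SHH3 (chrXIII:502835-503134, minus strand): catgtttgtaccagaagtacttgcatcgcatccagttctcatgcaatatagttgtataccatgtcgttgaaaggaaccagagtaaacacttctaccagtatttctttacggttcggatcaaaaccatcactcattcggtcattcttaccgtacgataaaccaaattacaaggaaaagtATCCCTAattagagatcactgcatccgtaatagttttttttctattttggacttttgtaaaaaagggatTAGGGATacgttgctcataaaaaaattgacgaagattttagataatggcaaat
CIT3 (chrXVI:555977-556276, plus strand): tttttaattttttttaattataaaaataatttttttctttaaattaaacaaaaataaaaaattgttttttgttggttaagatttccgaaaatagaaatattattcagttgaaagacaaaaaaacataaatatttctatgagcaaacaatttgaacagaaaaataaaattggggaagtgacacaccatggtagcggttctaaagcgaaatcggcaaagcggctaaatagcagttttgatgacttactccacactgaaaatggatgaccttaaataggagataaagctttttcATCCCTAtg
DDR2 (chrXV:231856-232155, minus strand): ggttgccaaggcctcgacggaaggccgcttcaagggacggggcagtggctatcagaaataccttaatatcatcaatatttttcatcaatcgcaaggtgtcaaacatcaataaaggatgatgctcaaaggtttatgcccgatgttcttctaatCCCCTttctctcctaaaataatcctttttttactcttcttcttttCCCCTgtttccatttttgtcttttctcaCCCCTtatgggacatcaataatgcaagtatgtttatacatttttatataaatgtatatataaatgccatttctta

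AGGGG, bound by the stress activators Msn2 and Msn4, was in 32 of the 70 windows of lower genes (45.7%), in 5 of the 31 of higher genes (16.1%) and in 23.8% of all 5890 windows. At least 2 copies were in 15 of the 70 and in 4.18% of all windows, and HSP12, PAI3 and DDR2 had 3 each. TAGGGAT, bound by Gis1, was in 5 of the 70 windows (7.14%), those of PIR3, SSA3, SHH3, CIT3 and ALD3, in 0 of the 31 of higher genes, and in 1.71% of all. PIR3, SSA3 and SHH3 are also the lowest genes after VIR1. The core of the heat shock element, TTCNNGAA, was as frequent in the windows of lower genes (14.3%) as in all windows (14.0%). GCCGCC, the core of the site of Ume6, a regulator of early meiotic genes, was in 11 of the 70 (15.7%), among them ADY2, SLZ1 and VIR1, and in 6.20% of all. These matches describe letters in a window and not bound sites.

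**Figure D2:**
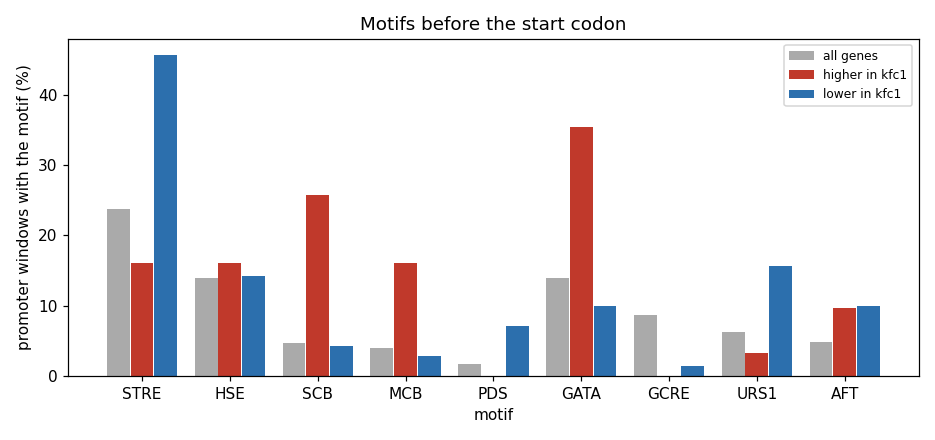
Share of promoter windows (percent, vertical axis from 0) that hold at least 1 match to each of 9 motifs, among all 5890 genes with a window, the 31 higher genes and the 70 lower genes. The blue bars stand above the grey ones for STRE (45.7% against 23.8%), PDS and URS1, the red ones for SCB (25.8% against 4.62%), MCB and GATA, and both for AFT, while the bars of HSE lie between 14.0% and 16.1%.

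Cell wall genes stood at both ends. PIR3 (-2.26), which encodes a wall protein with internal repeats on chromosome XI from 144401 to 145378, and SED1 (-1.29), a major wall protein of stationary cells, were the 2 lower genes of 58 in the list, and 4 were higher, with a median of 0.08. The higher ones were the chitin transglycosylase gene UTR2 (1.45), SCW10 (1.18), a glucanase-like gene, the glucan elongase gene GAS1 (1.16) and SRL1 (1.13). CIS3, a relative of PIR3, stood at 0.97. TOS1 (1.14), another wall protein gene, was not in the list and was noted after its value was seen.

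Phosphate, vitamin and DNA damage genes added single low values. PHO84, the high-affinity phosphate transporter gene (-1.32), and SPL2 (-1.43), a regulator of the low-affinity one, were the 2 counted of 35 phosphate and zinc genes. Of the 35, 28 lay below 0, against 52.8% of all genes. THI4 (-1.32) was the only one counted of 24 thiamine and vitamin B6 genes, whose median was -0.31. HUG1, which encodes an inhibitor of ribonucleotide reductase, was -1.67, and RNR3, a ribonucleotide reductase gene inducible by DNA damage, stood at -0.96. No list of DNA damage genes was made, and RNR1, another ribonucleotide reductase gene, was higher at 1.02.

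The meiotic lists, which the time course is about, were not alike at the start. Early meiotic genes had a median of -0.28, and 5 of 36 were above 0, against 47.2% of all genes, although 0 of 36 reached 2-fold. The strand exchange regulator gene HED1 (-0.97), the recombination gene HOP2 (-0.78), the cohesin gene REC8 (-0.74) and the recombinase gene DMC1 (-0.72) were among those furthest from 0. Middle meiotic genes had a median of -0.03 with SHC1 (-1.46) and SLZ1 counted, and SPS100 (-1.28) was the 1 lower of 14 late sporulation genes. SLZ1 (-1.05), whose window holds the Ume6 core, was placed in the middle list. The counts of early and middle genes depend on that placing. Of the regulators, RIM4 stood at -0.53, IME2 at -0.15, IME1 at -0.14, NDT80 at 0.15 and RME1, which encodes a repressor of IME1, at 0.18. None of the 21 meiotic entry regulators was counted and 11 lay above 0, and 7 of the 14 late genes lay above 0.

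Several higher genes belong to lists of the mitotic cell cycle. The G1 cyclin genes PCL1 (1.53) and CLN1 (1.21) were the 2 higher of 23 G1/S genes, with a median of 0.36, and PCL2 stood at 0.72 and the checkpoint gene TOS4 at 0.76. CLN3, the most upstream cyclin gene, was at -0.02. In bud emergence and polarity, GIC2, which encodes an effector of the polarity GTPase Cdc42 (1.72, chromosome IV from 1079048 to 1080199), and AXL2 (1.12), a landmark gene of axial budding, were the 2 counted of 31. Of the 31, 26 lay above 0, against 47.2% of all genes. Daughter cell separation genes had a median of 0.46, and 17 of 18 were above 0, against 47.2% of all genes. The septum gene SUN4 (1.23), the transcription factor gene SWI5 (1.17) and the glucanase gene DSE2 (1.02) were counted there, followed by AMN1 (0.88), EGT2 (0.81) and the chitinase gene CTS1 (0.76).

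Histone genes had the highest median of the 42 lists, 0.56, with 10 of 10 above 0 and 0 counted. HTB2 was at 0.77, HHF2 at 0.65 and the variant gene HTZ1 at 0.09. Of the G2/M genes, which turn on at mitosis, 22 of 24 were above 0, against 47.2% of all genes, with a median of 0.27. SWI5 was counted, and HOF1, needed for cytokinesis, stood at 0.93 and the B-type cyclin gene CLB2 at 0.91. DNA replication genes were not shifted as a list, with a median of -0.01, but the cohesin gene MCD1 (1.08) and the ribonucleotide reductase gene RNR1 (1.02), which are turned on at the G1/S transition, were 2 of 46 counted as higher. POL30 stood at 0.65 and CLB5 at 0.67. KAR1 (1.04) and SHE1 (1.01), genes of the spindle pole body and of the spindle, and STE12 (1.04), the transcription factor gene of the mating response, were further higher genes. STE12 was counted in the mating list, where the wall stress gene PRM5 was lower at -1.42.

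The windows of PCL1 and RNR1 are shown because they hold the sites of the factors that drive G1/S transcription, and that of FIT2, a higher gene of iron uptake, because it holds the most matches of its kind. Capitals mark CGCGAAA, the site of SBF, in PCL1, ACGCGT, the site of MBF, in RNR1, and GCACCC, within the site of Aft1, in FIT2, each on either strand.
PCL1 (chrXIV:87497-87796, plus strand): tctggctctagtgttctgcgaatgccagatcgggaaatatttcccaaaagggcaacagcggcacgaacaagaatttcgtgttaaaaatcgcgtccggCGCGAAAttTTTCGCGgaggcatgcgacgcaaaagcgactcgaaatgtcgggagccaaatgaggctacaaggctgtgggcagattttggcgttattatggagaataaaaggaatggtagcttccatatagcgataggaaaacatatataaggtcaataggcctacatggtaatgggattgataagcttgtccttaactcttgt
RNR1 (chrV:298550-298849, plus strand): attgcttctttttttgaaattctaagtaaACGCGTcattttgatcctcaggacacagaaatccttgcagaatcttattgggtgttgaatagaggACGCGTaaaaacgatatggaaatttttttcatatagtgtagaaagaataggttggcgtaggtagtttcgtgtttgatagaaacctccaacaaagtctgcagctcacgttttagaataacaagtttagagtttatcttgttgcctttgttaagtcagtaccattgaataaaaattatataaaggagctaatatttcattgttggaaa
FIT2 (chrXV:1059131-1059430, plus strand): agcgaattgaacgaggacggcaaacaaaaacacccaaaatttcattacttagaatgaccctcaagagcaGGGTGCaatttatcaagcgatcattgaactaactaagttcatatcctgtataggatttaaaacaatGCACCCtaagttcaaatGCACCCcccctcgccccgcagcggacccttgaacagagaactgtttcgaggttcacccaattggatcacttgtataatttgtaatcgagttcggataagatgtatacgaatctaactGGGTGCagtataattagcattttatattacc

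CGCGAAA was in 8 of the 31 windows of higher genes (25.8%), in 3 of the 70 of lower genes (4.29%) and in 4.62% of all. The 8 were PCL1, AXL2, CHA1, GAS1, MCD1, SHE1, SUN4 and UTR2. ACGCGT was in 5 of the 31 (16.1%), namely RNR1, MCD1, GIC2, SCW10 and AXL2, and in 4.01% of all, and PCL1 alone had 2 copies of the first among the higher genes, while RNR1 and MCD1 had 2 of the second. GATAAG, bound by the GATA factors of nitrogen genes, was in 11 of the 31 (35.5%), with 2 copies each in CHA1, MEP3 and TOS1, against 14.0% of all windows and 7 of the 70 of lower genes. GCACCC had 4 matches in FIT2 and 3 in FIT1, but it was in 3 of the 31 windows of higher genes (9.68%), in 7 of the 70 of lower genes and in 4.87% of all. TGACTC, bound by Gcn4, was in 0 of the 31, in 1 of the 70 of lower genes (1.43%) and in 8.61% of all.

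Other higher genes encode transporters and enzymes of nitrogen metabolism. TPO2, which encodes a polyamine exporter of the plasma membrane, was the highest gene at 2.13, a 4.39-fold difference. The other exporters of its list were not counted, with TPO4 at -0.41. The ammonium permease gene MEP3 (1.15) and the amino acid permease gene AGP1 (1.31) were the 2 counted of 38 nitrogen catabolite repression targets, whose median was 0.07. GDH1, the glutamate dehydrogenase gene that assimilates ammonium, was 1.26, and its paralog GDH3 was at -0.87. The serine deaminase gene CHA1 (1.12) and the S-adenosylmethionine synthetase gene SAM1 (1.12) were also higher. In iron and copper uptake, FIT1 (1.24), FIT2 (1.15) and the reductase gene FRE7 (1.23) were the 3 counted of 43, with FIT3 at 0.84 and the copper transporter gene CTR1 at 0.86, although the list's median was 0.08.

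The hexose transporter gene HXT6 was 1.52. HXT7, a nearly identical neighbour with which it may share reads, stood at 0.64, so the split between them is uncertain. CYC7 and UTR2 are convergent neighbours on chromosome V, 179 bases apart, and both were higher. Of the genes counted, 2 higher and 4 lower ones were not in the RefSeq table and have no coordinates here. By their systematic numbers, YGR139W (1.28) is next to TPO2, YMR307C-A (1.14) is paired with GAS1, YNL013C (-1.94) is next to HEF3 and YOL150C (-1.11) next to GRE2. The remaining lower ones were YLR311C (-1.41) and YMR173W-A (-1.04), whose neighbours were not read. Whether the authors counted reads by strand is not given in the sources used here. Reads of any of these genes and of such neighbours therefore cannot be told apart.

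The lists of cytosolic and mitochondrial ribosomal proteins, ribosome assembly and the proteasome held no counted gene. RIX1 (-1.04), a ribosome assembly factor gene outside the list, was lower. Cytosolic ribosomal proteins had medians of -0.10 in the large (81 genes) and -0.10 in the small subunit (57 genes), with RPL41A at -0.85 and RPS30B at -0.70 the lowest of each. Ribosome assembly genes lay slightly lower, at a median of -0.27 with 74 of 91 below 0 and UTP21 (-0.82) and NOP14 (-0.79) furthest down. Mitochondrial ribosomal proteins leaned up, with a median of 0.23 and 61 of 71 above 0, as did the respiratory chain and ATP synthase (median 0.24, 34 of 41 above 0), in which CYC7 was counted as higher and NDE2 as lower. Proteasome genes were below 0 in 34 of 35 cases at a median of -0.27, with their activator gene RPN4 at -0.59. Of the 42 lists, 13 had no gene counted in either direction. In turn, 8 of the 33 higher genes and 34 of the 74 lower genes were in none of the lists.

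**Figure D3:**
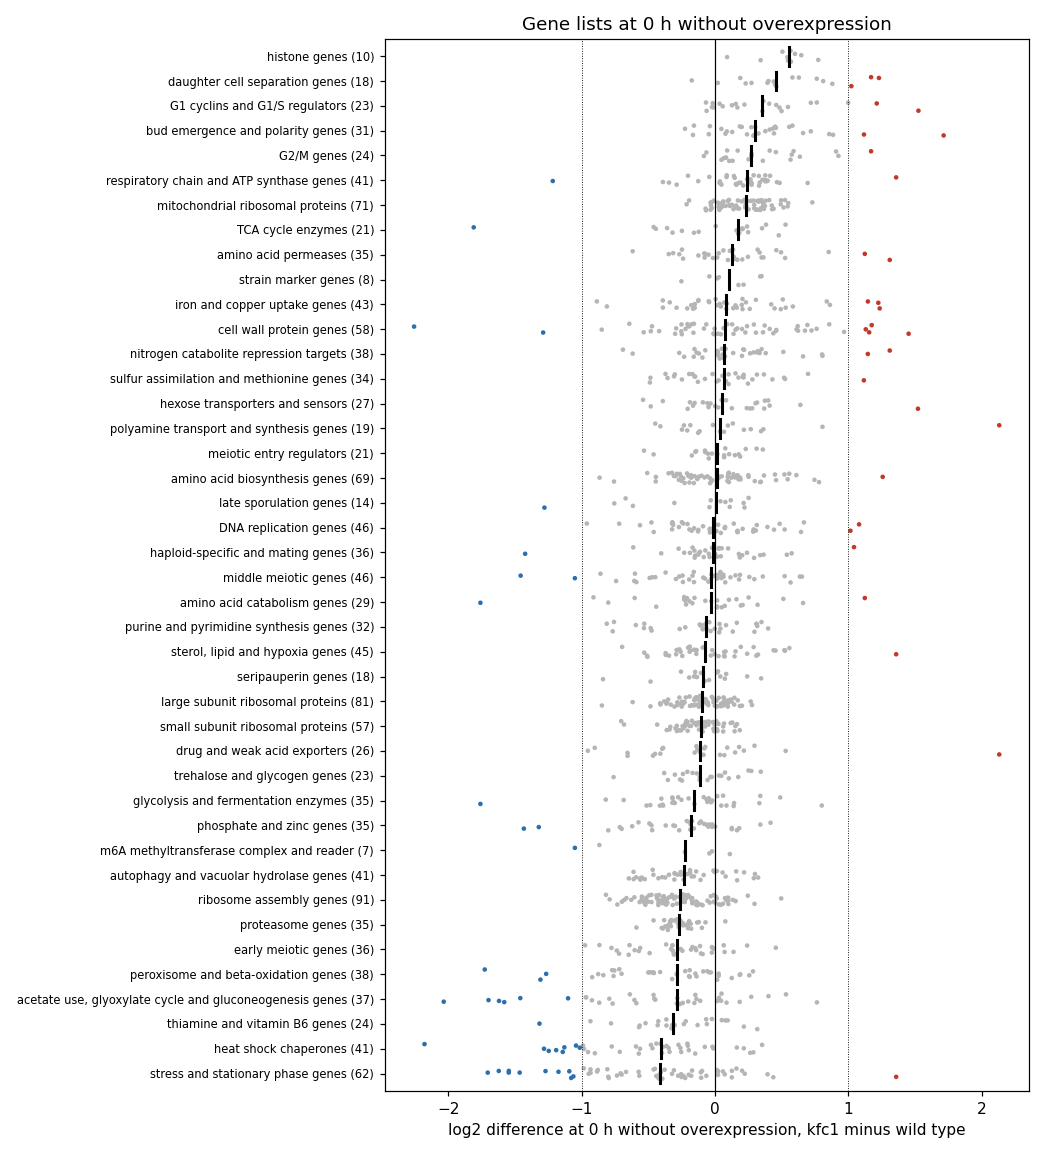
Log2 difference at 0 h without overexpression (horizontal axis) for each member (points) of 42 gene lists, ordered by median (bars), with the number of measured genes in parentheses. Red points are at least 2-fold higher and blue points at least 2-fold lower in kfc1, VIR1 at -5.73 is not drawn, and medians run from -0.42 for stress genes to 0.56 for histone genes.

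The genotypes were also read at 0 h in the overexpression arms, which hold other samples, and the table's common reference drops out of each difference there. The 33 higher genes were all above 0 with IME1 as well, against 49.9% of all genes in that arm, and 24 of them were at least 2-fold higher, against 10.7% of all genes. Their median there was 1.57. GIC2 was 2.70, GDH1 2.80, FIT1 3.05 and CYC7, the lowest of them, 0.04. Of the 74 lower genes, 60 were below 0 with IME1, against 50.1% of all genes, and 32 were at least 2-fold lower, against 1.86% of all. Their median was -0.92, with ALD3 at -1.92, SPG1 at -1.67 and CIT3 at -1.61. ICL2 (0.44), MLS1 (0.93) and ADH2 (-0.02) were exceptions or near 0.

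With IME1 and RIM4 this pattern was not seen. There, 11 of the 33 higher genes were above 0, against 48.9% of all genes, 0 were at least 2-fold higher (0.369% of all) and 7 were at least 2-fold lower, and the median was -0.35. The 74 lower genes divided into 39 below 0, against 51.1% of all genes, and 35 above, with a median of -0.03, and 7 were at least 2-fold lower (2.37% of all) and 4 at least 2-fold higher. VIR1, SSA3 (-1.44), ICL2 (-1.49), GRE1 (-1.09), SNO4 (-1.75), LSO1 (-1.75), an iron-responsive gene, and NCA3 (-1.58) were those 7. In this arm 0 of the 2 wild-type samples at 0 h were re-used, whereas both were without overexpression and with IME1, so the arms in which the differences recurred are those with re-used wild-type samples. The part of the re-use in these differences was not tested. The wild-type group with IME1 also stood apart at 0 h, with a spread over genes of 0.94 (SD of log2 ratios) against 0.34 in kfc1 without overexpression, and the IME1 arm differed widely in lists that were near 0 without it, such as large subunit ribosomal proteins (median 1.49 with IME1 and -0.78 with IME1 and RIM4).

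**Figure D4:**
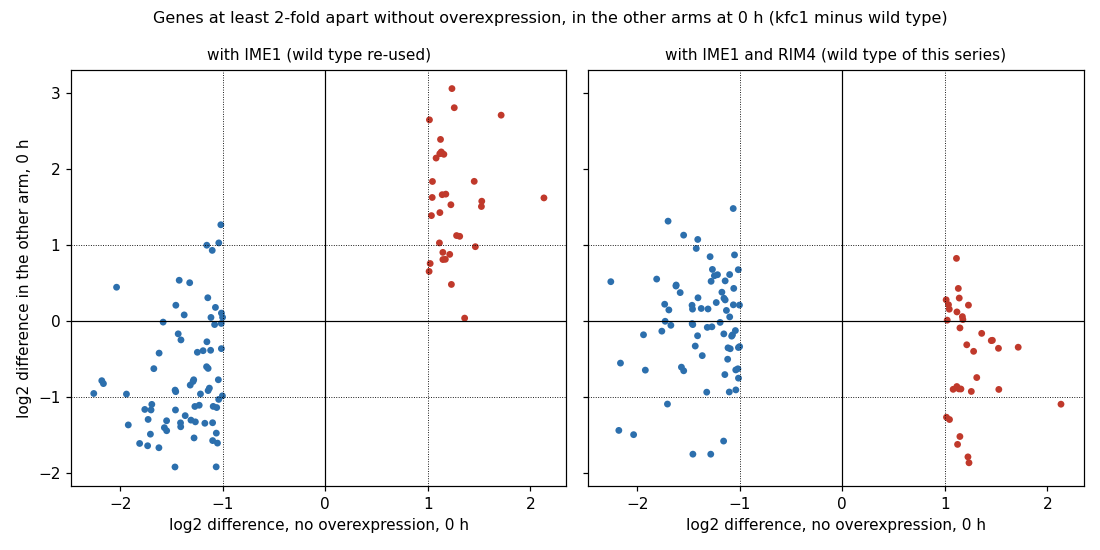
The 33 higher (red) and 73 of the 74 lower genes (blue, VIR1 not drawn) by their log2 difference without overexpression at 0 h (horizontal axis) and in the other arm at 0 h (vertical axis), with IME1 on the left and with IME1 and RIM4 on the right. Dotted lines mark 2-fold. On the left every red point lies above 0, and on the right 22 of the 33 lie below it.

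List medians in the 3 arms at 0 h, in the order of no overexpression, IME1, and IME1 with RIM4, differed in sign for several lists and not for others. They were -0.42, -0.74 and 0.31 for stress and stationary phase genes and -0.29, -0.50 and 0.17 for peroxisome and beta-oxidation genes. For heat shock chaperones they were -0.41, -0.12 and 0.14. G1/S genes had 0.36, 0.38 and -0.17, and bud emergence genes 0.30, 0.80 and -0.28. Daughter cell separation genes (0.46, 0.11 and 0.22) and histone genes (0.56, 0.15 and 0.13) had medians above 0 in all 3 arms. Early meiotic genes had -0.28, -0.18 and -0.07.

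After 0 h the same strains without overexpression were sampled at 2, 4, 6, 8 and 12 h. The kfc1 columns of those times were read as relative to kfc1 at 0 h, and the value at 0 h was added back to each. With unshrunken ratios the samples at 0 h then drop out of the later differences. Whether the ratios were shrunken is not known, and the times are given side by side without a count. Several propionate, acetate and fatty acid genes were above 0 from 2 h on. ICL2 went from -2.03 at 0 h to 0.95, 1.55, 1.32, 0.79 and 0.77 at the later times. CIT3 went from -1.81 to 0.08, 0.68, 0.70, 0.59 and 0.37. POX1 stood at 0.25 and ADY2 at 0.32 at 2 h, and both were above 0 up to 12 h. PIR3, SSA3, GRE1 and PDC6 lay below 0 up to 8 h, whereas HSP12 (0.62), HSP82 (0.56) and GRE2 (0.52) were above 0 at 2 h. PIR3 was -3.09 at 2 h, -1.40 at 4 h and 0.28 at 12 h, and SSA3 was -1.06 at 2 h and 0.15 at 12 h. GRE1 stayed between -1.63 and -0.95 from 2 to 8 h and was -0.18 at 12 h, and PDC6 was -1.75 at 2 h and -0.39 at 12 h.

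Of the higher genes, the G1 cyclin genes crossed 0 by 2 h, where PCL1 was -1.13 and CLN1 -0.61, and PCL1 was again 1.01 at 6 h. TPO2 was -0.51 at 2 h and lay between -1.24 and -0.51 at all later times. The nitrogen genes differed among themselves. CHA1 was -0.14 at 2 h and -0.78 at 4 h. AGP1 was 2.36 at 2 h, 2.13 at 4 h and 0.44 at 12 h, and GDH1 was 1.87, 1.35 and 0.39 at those times. SWI5 was 1.63 at 2 h and 0.44 at 12 h, GIC2 was 0.86 at 4 h and -0.01 at 12 h, and SRL1 lay between 1.13 and 1.77 from 0 to 12 h.

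**Figure D5:**
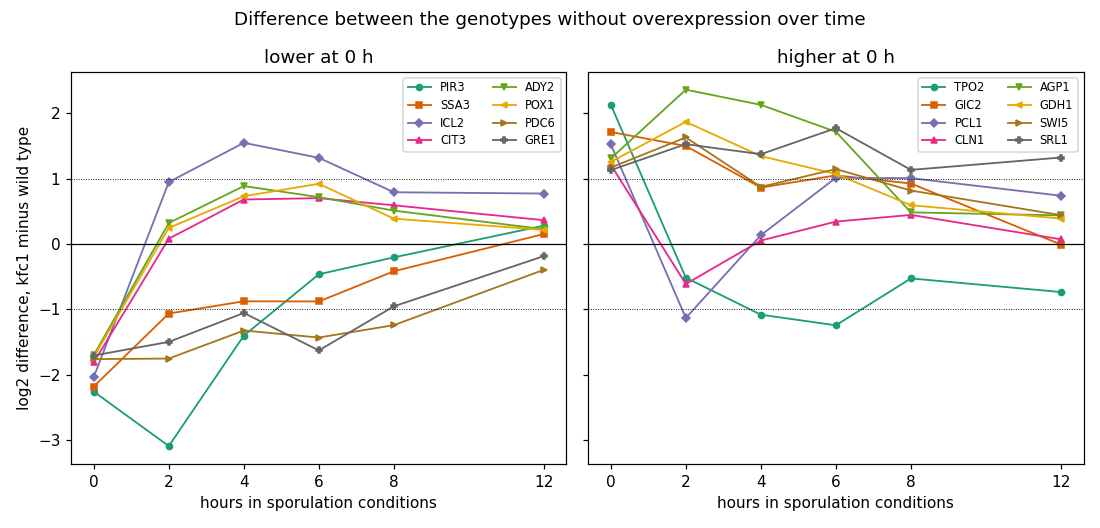
Log2 difference between kfc1 and wild type without overexpression (vertical axis) over hours in sporulation conditions (horizontal axis) for 8 genes lower and 8 genes higher at 0 h, 1 combined value per point. ICL2, CIT3, ADY2 and POX1 cross above 0 by 2 h, while PCL1, CLN1 and TPO2 cross below it.

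Median differences of the 16 nuclear chromosomes ran from -0.05 to 0.06. Lower genes made up 1.14% of all genes. Among the chromosomes with high or low counts, XI had 8 of 316, VII 10 of 532 and XII 1 of 502, while IV had 9 of 755. These are small counts picked after they were seen, and their spread was not tested. Across 5893 genes the Spearman correlation of the difference with coding length was -0.06, a description over genes that share the same libraries. Of the marker genes of laboratory strains, HIS3 stood at 0.34, LYS2 at -0.25 and MET17 at 0.21, and LEU2 had no value. URA3 read 0.0169, as did PAU20 and CUP1-2. It had no value at 2, 4, 6 and 8 h or with IME1 and RIM4, and was -3.48 with IME1. Its value near 0 may therefore reflect few or no reads and does not show equal expression. The 36 haploid-specific and mating genes had a median of -0.01, with STE12 and PRM5 counted and the pheromone receptor genes STE2 and STE3 at 0.29 and 0.02. AFR1, a gene of mating projections outside the list, was -1.15.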

How the data were processed

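The study sequenced polyadenylated RNA in 64 samples, 32 groups of 2. The deposited table holds log2 ratios made by the authors, 1 column per group with the replicates combined. BWA, DESeq2 and sacCer3 appear in the submitters' processing notes without their roles. How reads were counted, by strand or not, and whether ratios were shrunken is not given in the sources used. The base of the logarithm was taken as 2. Of 165 genes blank in a later kfc1 column without overexpression, 17 had a value at 0 h and 17 of these were negative, and VIR1 lay between -0.0036 and 1.03 in those columns, so these columns were read as relative to the mutant at 0 h, whose value was added back. In the column at 0 h, 44 genes shared an exact value with another gene, all between -0.06 and 0.05. Any shrinkage would make folds too small. Depth per sample is unknown.

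With 1 combined value per group no test was run, and genes were counted at 2-fold by size alone. Symbols and coordinates came from the RefSeq table of R64, the assembly of sacCer3, in which 5986 of 6660 identifiers were found. Genes named were the 20 highest and 20 lowest, list members at 2-fold (or the 2 furthest from 0), the m6A genes, 5 regulators and 3 neighbours on each side of VIR1; others were chosen after their values were seen. Members and lists were chosen with earlier results of these data known. Promoter windows of 300 bases were scanned on both strands with Python 3.11.15. Alternatives were another scaling, RefSeq genes only, genes with shared values left out, and other fold limits.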

Additional observations from a re-analysis of the deposited data

Results flagged for a closer look

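Some genes were at least 2-fold apart at 0 h in opposite directions in 2 arms. The values are log2 differences of kfc1 minus wild type, each a single combined value, and the difference between the arms was not tested. Higher without overexpression and lower with IME1 and RIM4 were TPO2 (2.13 and -1.09), FIT1 (1.24 and -1.86), FRE7 (1.23 and -1.79), MEP3 (1.15 and -1.52), CHA1 (1.12 and -1.62), YDL241W (1.05 and -1.30) and RNR1 (1.02 and -1.27). Lower without overexpression and higher with IME1 and RIM4 were ADY2 (-1.70 and 1.31), RGI2 (-1.55 and 1.13), CPP3 (-1.41 and 1.07) and BAG7 (-1.06 and 1.48). Lower without overexpression and higher with IME1 were RIX1 (-1.04 and 1.02), which encodes a ribosome assembly factor and was not in the list of such genes, and YDR261C-D (-1.02 and 1.26), a transposon gene with similar copies elsewhere in the genome.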

How the results depend on the processing

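The number of genes counted followed the limit on size, with 178 higher and 296 lower at 1.5-fold and 2 higher and 17 lower at 3-fold, against 33 and 74 at 2-fold. Centring the column on its mean gave 35 and 68, centring on the median of RefSeq genes 34 and 69, RefSeq genes alone 31 and 70, and leaving out genes with shared exact values 33 and 74. Of 84 counts of list members, 82 were equal after centring on the mean. G1/S genes then had 3 higher in place of 2, and heat shock chaperones 7 lower in place of 8. With each arm centred on its mean, an alternative chosen after seeing the data, 32 of the 33 higher genes were above 0 with IME1 and 11 with IME1 and RIM4, and 64 and 34 of the 74 lower genes were below 0.

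No paired analysis was possible because the table holds no value of a single replicate, and for the same reason leaving out a replicate was not run. The spread between replicates is unknown, so no 2-fold difference was compared with it.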

Other observations

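Adjacent genes were counted in 5 cases. Besides CIT3 with PDH1 and UTR2 with CYC7, YKL107W (-1.73) and YKL106C-A (-1.06) lie 76 bases apart on chromosome XI. In the other two cases the neighbours differed in opposite directions. HSP31 (-1.19) and FIT1 (1.24) lie on the same strand of chromosome IV, 1153 bases apart, and FRE7 (1.23) and GRE2 (-1.08) on the same strand of chromosome XV, 1083 bases apart. These pairs were noted after their values were seen and no explanation was tested.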
